A study of Arabidopsis thaliana with 8 samples.

Results

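The 1725 entries described here are the rows of the deposited expression tables that lie in the pericentromere of Arabidopsis chromosome 5. An entry was taken when the midpoint of its interval lay between 9 and 16 Mb on that chromosome, and 9 of the 1734 entries found were set aside by name, which left 1725 of 34133. Polyadenylated RNA was measured in whole seedlings of the Col-0 strain, all 10 days old and grown on plates in long days. The mutant groups were mom1 with 2 libraries and pial1/2, pial2, mom1pial2 and nrpe1 with 1 library each, and the WT group had 2 libraries. No agent was applied to any of them, and the labels name no allele. Each of the 6 tables compares 1 mutant library with 1 WT library. The mom1 replicate 1, pial1/2 and nrpe1 tables share WT replicate 1, while those of mom1 replicate 2, pial2 and mom1pial2 share WT replicate 2, so tables with a common WT library are not independent of each other.

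Pericentromeres flank the centromere and are dense in transposons, their remnants and other repeats, which plants keep silent through DNA methylation and repressive histone marks. MOM1 is a nuclear protein needed for silencing at some of these loci, largely without loss of DNA methylation. PIAL1 and PIAL2 resemble SUMO E3 ligases, and the series title names them as partners of MOM1. NRPE1 is the main catalytic subunit of RNA polymerase V, a plant polymerase of the RNA-directed DNA methylation pathway.

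Among the members, 800 are annotated as protein coding, 797 as pseudogenes, and 128 are other RNAs or had no match in the annotation. The annotation used, TAIR10.1 from RefSeq, gives transposon genes no class of their own, and such genes are found among its pseudogenes. A transcript suffix (a point and a number after the locus name) stood on 315 entries, all of them pseudogenes, and 1410 entries had none. Pseudogenes with a suffix were 1689 bases long at the median with 41.8% GC, those without a suffix were 1859.5 bases long with 41.5% GC, and protein coding members were 1820.5 bases long with 38.3% GC. Of the 50-base windows of a pseudogene, 10.7% (with suffix) or 11.6% (without) were found elsewhere in the genome at the median, against 0% for protein coding members. The classes lie in different places. Pseudogenes outnumber protein coding entries between 10 and 14 Mb and reach 203 against 25 in the megabase from 12 to 13 Mb, while protein coding entries dominate from 9 to 10 Mb (200 against 41 pseudogenes) and from 15 to 16 Mb (227 against 28).

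The clearest shared sequence among the members that were higher in mom1 is a repeat in 2 segments. Among those members the segments lie side by side at 3 places in the window, as AT5G33389 and AT5G33391 (1717 bases apart), AT5G32053 and AT5G32035.1 (1684 bases apart), and AT5G35057.1 and AT5G35052.1 (1726 bases apart), each pair on 1 strand. Stretches of 120 bases are shown so that these 3 copies of each segment can be read against each other; further copies in the window, most of them near 0 in every library, are counted with the values. All are from TAIR10.1 and run 5′ to 3′ on the strand of the entry. Capitals mark bases that differ from the copy given first, of which there are 11 in AT5G32035.1, 3 in AT5G35052.1, 15 in AT5G32053 and 11 in AT5G35057.1.
AT5G33391, chr5:12649426-12649545, plus strand: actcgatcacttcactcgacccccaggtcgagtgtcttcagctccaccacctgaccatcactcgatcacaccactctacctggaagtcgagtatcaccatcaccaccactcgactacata
AT5G32035.1, chr5:11798153-11798272, minus strand: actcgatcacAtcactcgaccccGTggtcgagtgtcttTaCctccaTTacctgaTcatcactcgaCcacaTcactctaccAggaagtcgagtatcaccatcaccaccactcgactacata
AT5G35052.1, chr5:13318543-13318662, minus strand: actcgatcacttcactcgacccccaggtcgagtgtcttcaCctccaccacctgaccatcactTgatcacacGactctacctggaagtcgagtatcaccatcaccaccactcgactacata
AT5G33389, chr5:12645993-12646112, plus strand: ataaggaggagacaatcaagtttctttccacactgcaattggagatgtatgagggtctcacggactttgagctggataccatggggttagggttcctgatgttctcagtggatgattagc
AT5G32053, chr5:11801666-11801785, minus strand: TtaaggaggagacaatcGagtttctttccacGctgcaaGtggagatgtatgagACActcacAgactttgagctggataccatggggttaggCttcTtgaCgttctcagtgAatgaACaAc
AT5G35057.1, chr5:13321981-13322100, minus strand: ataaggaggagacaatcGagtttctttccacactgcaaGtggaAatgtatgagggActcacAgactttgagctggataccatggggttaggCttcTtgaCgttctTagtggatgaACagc

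Over the full matches, the short segment AT5G33391 was 87.9% identical to AT5G32035.1 over 614 bases and 92.5% identical to AT5G35052.1 over 504 bases. The long segment AT5G33389 was 91.1% identical to AT5G32053 over 1905 bases and 91.4% identical to AT5G35057.1 over 1484 bases. Among the 20 members that were higher in both mom1 tables by either rule given below, 13 of 190 pairs matched (BLAST e-value of at most 1e-10), and the matching pairs involved 8 members. How the authors treated reads that map to several places is not given in the sources used here, so the split of reads between such copies is uncertain.

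The 250 bases upstream of 3 further members are shown because these entries have little sequence found elsewhere and their levels differ in which mutants are high. AT5G26270 was higher in each mutant except nrpe1, AT5G27845.1 was higher in every mutant, and AT5G35207 was higher in nrpe1. The windows are from TAIR10.1, 5′ to 3′ on the strand of the entry and ending just before its first base, and capitals mark CG.
AT5G26270, chr5:9206125-9206374, plus strand: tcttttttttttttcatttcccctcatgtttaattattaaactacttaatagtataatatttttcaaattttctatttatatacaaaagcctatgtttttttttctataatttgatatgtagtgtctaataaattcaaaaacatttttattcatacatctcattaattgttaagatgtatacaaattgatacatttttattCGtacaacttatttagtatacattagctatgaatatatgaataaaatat
AT5G27845.1, chr5:9868098-9868347, plus strand: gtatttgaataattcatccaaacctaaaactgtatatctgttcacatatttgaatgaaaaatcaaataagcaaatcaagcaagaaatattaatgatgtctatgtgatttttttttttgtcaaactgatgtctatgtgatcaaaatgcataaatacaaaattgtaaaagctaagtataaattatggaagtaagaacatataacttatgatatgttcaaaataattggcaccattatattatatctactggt
AT5G35207, chr5:13472483-13472732, minus strand: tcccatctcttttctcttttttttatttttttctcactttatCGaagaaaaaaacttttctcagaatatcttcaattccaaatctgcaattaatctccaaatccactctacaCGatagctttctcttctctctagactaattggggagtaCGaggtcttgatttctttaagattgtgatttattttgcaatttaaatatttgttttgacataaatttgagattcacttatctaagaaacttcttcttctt

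The windows hold 1 CG for AT5G26270, 0 for AT5G27845.1 and 3 for AT5G35207. Over the 1698 members with a strand in the annotation, the window of this length held 5 CG at the median, 6 for pseudogenes and 4 for protein coding entries, and 96.2% of the windows held at least 1. The search read CG on the strand shown, where it is the same on the other strand, and its absence from a window says only that these letters are not there.

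The libraries fall into 2 sets, each made of 1 WT library and the mutants compared with it. The clock gene CCA1 stood at 9.33 to 15.2 FPKM in the mutants and 10.0 to 10.06 FPKM in WT in the set of WT replicate 1, and at 126.8 to 155.2 FPKM in the mutants and 148.5 to 151.4 FPKM in WT in the set of WT replicate 2. Between the WT libraries, 14.7% of members at 1 FPKM or more differed at least 2-fold, as did 15.4% of all entries, so levels are compared within a table. Leaf markers were high in every library and flower and pollen markers stood at or below 0.397 FPKM. The seed storage gene CRU3 stood at 0.251 FPKM in mom1 replicate 2, 0.0510 in pial2 and 2.80 in mom1pial2, against 3.18 to 3.24 in WT replicate 2. The seed gene SESA3 stood at 0, 0 and 0.265 FPKM in the same order, against 3.57 to 3.64. For the seed gene OLEO1 the levels were 0.245, 0.0496 and 1.27 FPKM, against 2.63 to 2.68. The root gene THAS stood at 3.64 FPKM in mom1 replicate 2, 3.45 in pial2 and 7.66 in mom1pial2, against 13.7 to 14.0 in WT replicate 2. The part of these seed and root genes in the results was not tested. MOM1 itself had 1.61 FPKM in mom1 replicate 1 against 6.10 in WT, 1.15 in mom1 replicate 2 against 4.90 in WT, and 1.29 in mom1pial2 against 4.99 in WT. PIAL2 had 1.96 FPKM in pial2 against 5.52 in WT and 2.13 in mom1pial2 against 5.53 in WT, and NRPE1 had 1.16 FPKM in nrpe1 against 4.61 in WT. The pial1/2-labelled library had 11.3 FPKM of PIAL1 against 11.7 in its WT library, and 4.79 FPKM of PIAL2 against 6.47 (q = 0.29 in the authors' deposited table), so transcript levels do not check that label. Among 20 genes of the silencing machinery, the authors' deposited tables called no other gene than these mutated ones, except the DNA demethylase gene ROS1, which had 1.84 FPKM in nrpe1 against 16.1 in WT. Levels are in FPKM, which scales fragments by transcript length and library size, and without counts the sequencing depth is unknown. By the steps of low values, 1 fragment was worth 0.666 times as much in mom1 replicate 1 as in its WT library, which makes that mutant library deeper than its WT, and the factor was 1 to 1.13 in the other tables. Whole seedlings were measured, so fewer cells of a type and less RNA per cell cannot be told apart.

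Most of the expressed genes of the window kept the level they had in WT. Log2 ratios were taken as log2 of (mutant FPKM + 1) over (WT FPKM + 1), which understates changes of low entries. Among the 402 to 416 members with at least 1 FPKM in the WT library of a table, of which 393 of 416 were protein coding for mom1 replicate 1, the median log2 ratio was 0.00 in mom1 replicate 1, 0.01 in mom1 replicate 2, -0.02 in pial1/2, 0.04 in pial2, 0.03 in mom1pial2 and 0.00 in nrpe1. At the other end, 734 members were listed at 0 in all 12 columns of the tables. Of the 18 members called higher in both mom1 tables, described next, 8 were listed at 0 in WT replicate 1 and 10 in WT replicate 2.

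In mom1, pseudogenes of the window that were at or near 0 in WT were detected, together with a few protein coding genes, and fewer members were lower. A member is called when the q-value in the authors' deposited table lies below 0.05. This Cuffdiff test compares the 2 libraries of a table by their reads, so a call is a difference between libraries and not between genotypes, and the mutants with 1 library have no replicate check. The authors' deposited table called 33 of 548 tested members higher in mom1 replicate 1, where 0.999% of all tested entries were called higher, and 3 members lower, where 1.12% of entries were. In mom1 replicate 2 it called 20 of 501 members higher, against a background of 0.979%, and 6 lower, against 1.36%. Called higher in both tables were 18 of the 490 members tested in both (background 0.518%), and none was called lower in both (background 0.25%). Within single tables, 23 of the 443 members with at least 1 FPKM in either library were 2-fold higher in mom1 replicate 1 (background 1.06%) and 5 were 2-fold lower (background 0.623%), and in mom1 replicate 2 it was 23 of 427 (background 1.18%) and 3 (background 0.989%). By the same size rule, 15 members were at least 2-fold higher in both tables (background 0.448%) and none was 2-fold lower in both (background 0.078%); 13 members met both rules. Members silent in WT enter the authors' test, or reach 1 FPKM, only through the mutant, so a high share of calls among them is partly fixed by how they entered.

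Across the 2 mom1 ratios, a limma fit over 20517 entries with at least 1 FPKM in a mom1 or WT library included 457 members, and none passed at a Benjamini-Hochberg adjusted p of 0.05 in either direction. In the same fit 18 entries of the whole table passed upward, a background of 0.0877%, and none downward, a background of 0%. At an unadjusted p under 0.05 the limma fit held 36 members upward, 7.88% of those fitted against a background of 2.76%, and 11 downward against a background of 3.32%. Members silent in WT entered this fit only through mom1, so the upward share is partly fixed by how they entered. The lowest adjusted p among members was 0.0513, so with 2 libraries a group no member reached the threshold, and nothing in the labels says that replicates came from separate plants or cultures.

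AT5G26970, AT5G35510, AT5G26270 and AT5G34810 came nearest to the threshold of the limma fit. AT5G26270, which codes for an uncharacterized protein, had 13.8 FPKM in mom1 replicate 1 against 3.47 in WT, and 23.1 FPKM in mom1 replicate 2 against 6.31 in WT. It was also at 10.3 FPKM in the pial1/2-labelled library against 3.45 in WT, 16.8 in pial2 against 6.42, and 26.1 in mom1pial2 against 6.43, but at 3.51 in nrpe1 against 3.47. Every mutant library but nrpe1 thus stood above both WT libraries, and these 5 comparisons were called in the authors' deposited table, with q between 1e-07 and 0.000397. The mom1 log2 ratio of AT5G26270 was 1.72 in each table (limma adjusted p = 0.0589, higher in 2 of 2). The pseudogene AT5G34810 was likewise above WT in each mutant except nrpe1, at a lower level, with 3.47 and 3.39 FPKM in mom1 against 0.303 and 0.355 in WT, 3.01 in pial1/2 against 0.301, 2.52 in pial2 against 0.361, 2.86 in mom1pial2 against 0.362, and 0.303 in nrpe1 against 0.303. Its mom1 log2 ratio was 1.74 ± 0.06 (SD, n = 2; limma adjusted p = 0.0605), and in the authors' deposited table q lay between 0.000148 and 0.00651 in the 5 tables where it was called. AT5G26270 and AT5G34810 are the only members other than AT5G27845.1 and AT5G27850 called higher in pial2.

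AT5G26970 had 5.19 and 5.14 FPKM in mom1, against 0.223 and 0 in WT. The other mutants had 2.49 FPKM (pial1/2, WT 0.222), 0.579 (pial2, WT 0), 2.17 (mom1pial2, WT 0) and 6.24 (nrpe1, WT 0.223). Only the mom1 comparisons passed in the authors' deposited table (q = 0.0429 and 0.022), with nrpe1 at q = 0.0608. The mom1 log2 ratio of AT5G26970 was 2.48 ± 0.20 (SD, n = 2; limma adjusted p = 0.0513). AT5G35510, singled out after its values were seen, has a short interval in the tables and is annotated as a TIR-NBS-LRR class disease resistance protein. It had 4.11 and 12.4 FPKM in mom1 against 0 and 1.17 in WT, 10.8 in pial1/2 against 0, 8.79 in pial2 against 1.19, 5.37 in mom1pial2 against 1.19 and 1.76 in nrpe1 against 0, and was called in none of the authors' deposited tables (lowest q 0.0605, for pial1/2). Its mom1 log2 ratio was 2.49 ± 0.19 (SD, n = 2; limma adjusted p = 0.0513).

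**Figure D1:**
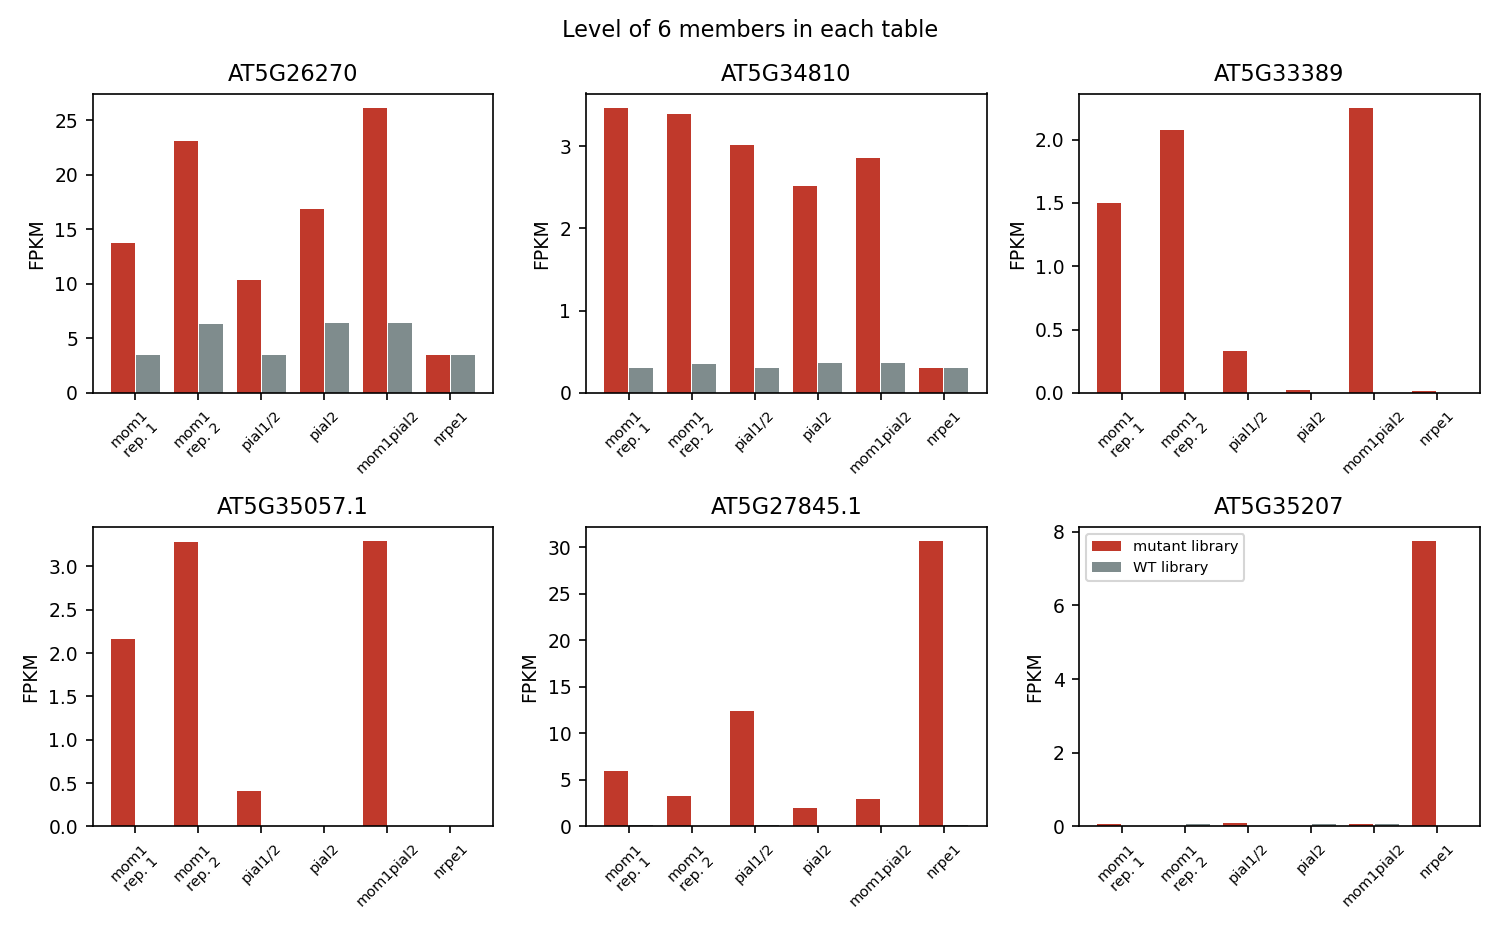
Level in FPKM of 6 members in each of the 6 tables, with the mutant library to the left of the WT library of the same table and each bar 1 library. AT5G26270 and AT5G34810 are high in each mutant except nrpe1, while AT5G27845.1 is highest in nrpe1 at 30.7 FPKM.

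The pial1/2-labelled and mom1pial2 libraries shared much of this set, while pial2 and nrpe1 had fewer members called. Among 518 tested members, the authors' deposited table called 19 higher in pial1/2 (background 0.7%) and 3 lower (background 0.489%). In mom1pial2 it called 17 of 487 members higher (background 0.824%) and 3 lower (background 1.16%), in pial2 4 of 482 higher (background 0.844%) and 6 lower (background 1.6%), and in nrpe1 14 of 508 higher (background 1.2%) and 2 lower (background 0.67%). The share called higher in pial2 was thus near that of all entries. By size, 18 members were at least 2-fold higher in pial1/2 (background 0.847%) and 4 lower (background 0.534%), 24 higher in mom1pial2 (background 1.07%) and 1 lower (background 0.858%), 5 higher in pial2 (background 0.732%) and 4 lower (background 0.833%), and 12 higher in nrpe1 (background 0.914%) and 3 lower (background 0.497%), of 412 to 435 members with at least 1 FPKM. For the 15 members at least 2-fold higher in both mom1 tables, chosen on the mom1 values, the median log2 ratio was 1.66 and 1.72 in the mom1 tables, 1.18 in pial1/2, 0.03 in pial2, 1.70 in mom1pial2 and 0.07 in nrpe1. These are values side by side, since mom1pial2 and pial2 share a WT library with mom1 replicate 2, and pial1/2 and nrpe1 share one with mom1 replicate 1.

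Over all 6 of the authors' deposited tables, 48 of the 572 members tested in any table were called higher in at least 1 (background 3.17%), of which 30 were pseudogenes, 16 protein coding and 2 of other classes. Of these 48, 25 were called in several tables and 23 in 1 table, including 9 called only in mom1 replicate 1, the deepest mutant library relative to its WT. Called lower in at least 1 table were 16 members (background 3.91%), 14 of them protein coding and 2 pseudogenes. AT5G27845.1 alone was called higher in all 6 tables.

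**Figure D2:**
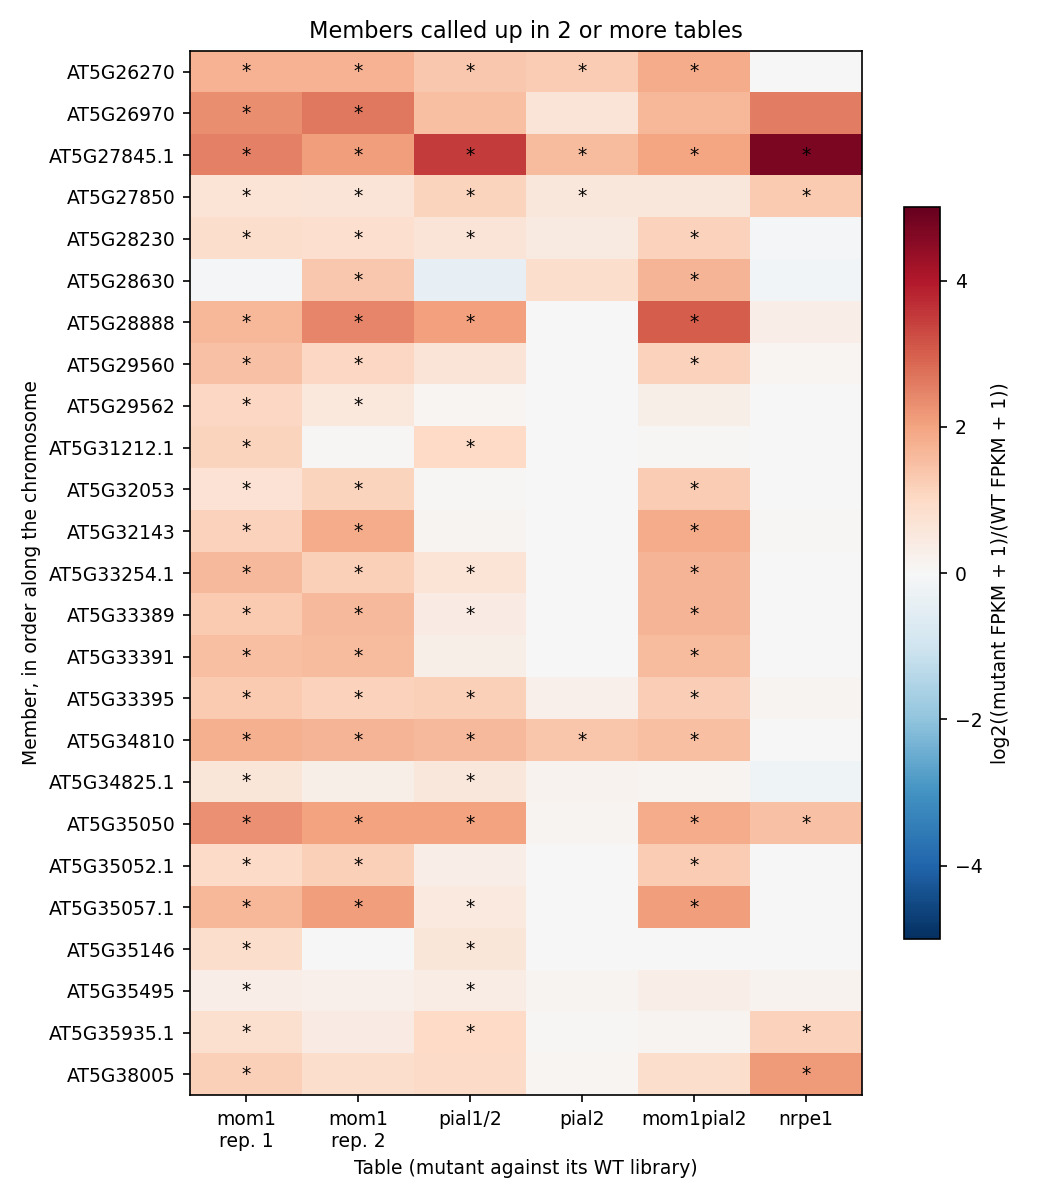
Log2 ratio of mutant over WT on FPKM plus 1 for the 25 members called higher in at least 2 of the authors' tables, in order of position, with 1 column per table and an asterisk where the entry was called. The columns of both mom1 libraries and mom1pial2 are filled over most of the set, and the column of pial2 is near 0 except for a few members such as AT5G26270 and AT5G34810.

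Every entry with a suffix is a pseudogene, so the entry types are set side by side both in all and among pseudogenes. Of the 315 entries with a suffix, the authors' deposited table called 9 higher in mom1 replicate 1, 4 in mom1 replicate 2, 6 in pial1/2, 1 in pial2, 4 in mom1pial2 and 3 in nrpe1. Of the 1410 entries without one it called 24, 16, 13, 3, 13 and 11 in the same order of tables, of which 17, 9, 6, 1, 7 and 2 were among the 482 pseudogenes without a suffix. Pseudogene members were called higher in 26 cases in mom1 replicate 1 (3.26% of 797), 13 in mom1 replicate 2 (1.63%), 12 in pial1/2 (1.51%), 2 in pial2 (0.251%), 11 in mom1pial2 (1.38%) and 5 in nrpe1 (0.627%). Of the 3686 pseudogene entries outside the members, 2.31%, 1.65%, 1.03%, 0.217%, 1.74% and 0.678% were called in the same order. Over tested pseudogenes alone the shares were 52.0%, 35.1%, 38.7%, 10.5%, 36.7% and 19.2% of 19 to 50 members, and 31.0%, 27.7%, 19.7%, 5.37%, 29.5% and 13.8% of 149 to 274 other entries. An entry silent in WT is tested only through the mutant, and neither difference was tested. Protein coding members were called higher in 5, 6, 6, 2, 5 and 8 of 800 cases, and protein coding entries outside the members in 98, 126, 90, 164, 92 and 212 of 25883.

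**Figure D3:**
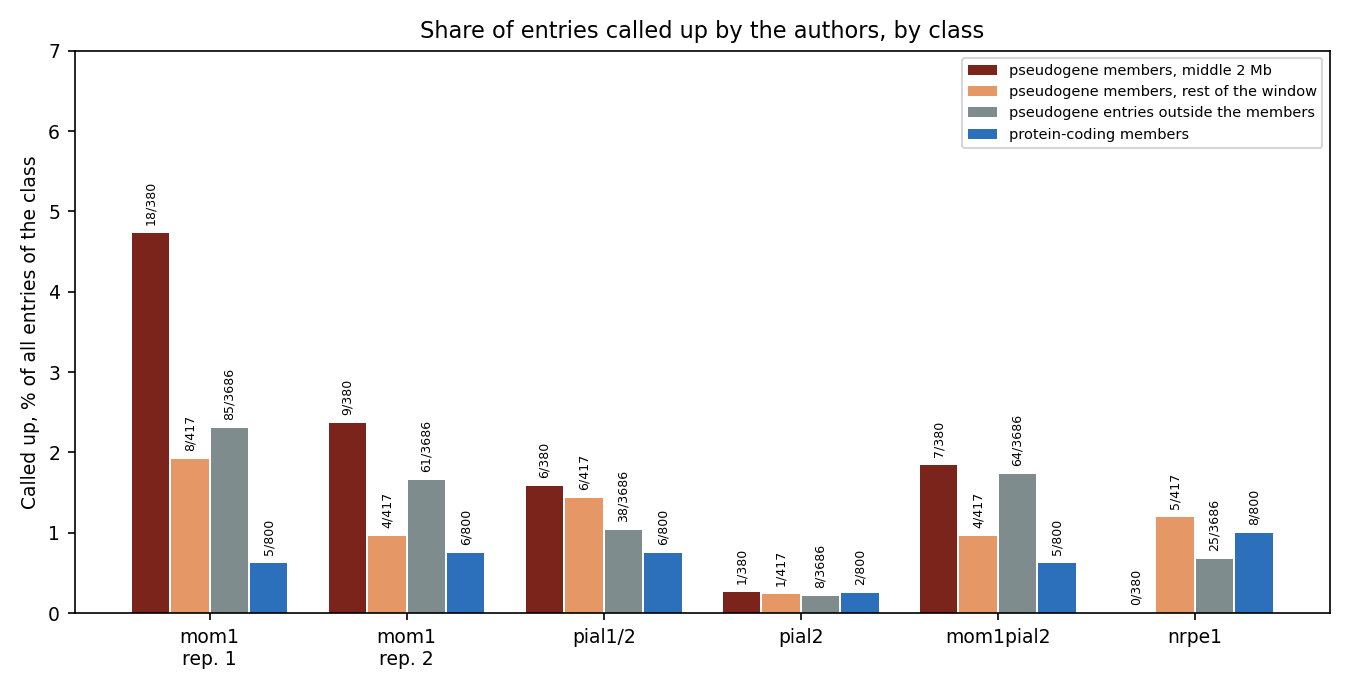
Percent of all entries of a class that the authors' tables called higher, for each mutant library. Pseudogene members from 11 to 13 Mb, a region chosen after the counts were seen, stand at 4.74% in mom1 replicate 1 and 0.263% in pial2. Those in the rest of the window stand at 1.92% and 0.240%, against 2.31% and 0.217% of the pseudogenes outside the members.

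In 98 loci the tables hold an entry with and an entry without a suffix over the same interval. Only 36 of these loci had any value above 0, and in 8 of them both entries were above 0 in 1 column. At AT5G28430, a pseudogene at chr5:10365742-10367421, the plain entry was listed at 0 in nrpe1 against 0.677 FPKM in WT and called lower, while AT5G28430.1 had 0.508 FPKM in nrpe1 against 0 in WT and was called higher, both in the authors' deposited table. Summed over both entries the locus had 0.508 FPKM in nrpe1 against 0.677 in WT. The entries of this interval were thus called in opposite directions while the sums differed by less than either entry did. None of the other loci with both entries was called in any table.

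The calls are given by position, beside the number of members tested. Of all tested entries, 0.999% were called higher in mom1 replicate 1, 0.979% in mom1 replicate 2 and 0.824% in mom1pial2. The shares were 0.7% in pial1/2, 0.844% in pial2 and 1.2% in nrpe1. A member silent in WT was tested only through the mutant, so shares among few tested members are partly fixed. In mom1 replicate 1 the authors' deposited table called 4, 2, 9, 10, 6, 1 and 1 members higher in the successive megabases from 9 to 16 Mb, of 148, 62, 17, 26, 62, 88 and 145 tested. In mom1 replicate 2 it called 4, 3, 4, 6, 3, 0 and 0, of 140, 53, 11, 23, 53, 83 and 138 tested. For mom1pial2 the counts were 2, 3, 3, 5, 3, 0 and 1, of 139, 50, 9, 19, 54, 82 and 134 tested. For pial1/2 they were 3, 2, 1, 6, 4, 1 and 2, of 146, 57, 8, 20, 58, 86 and 143 tested. For pial2 they were 3, 0, 0, 1, 0, 0 and 0, of 139, 51, 4, 14, 52, 86 and 136 tested. The nrpe1 counts were 4, 1, 0, 0, 4, 3 and 2, of 144, 56, 6, 13, 57, 89 and 143 tested, so that it had no call between 11 and 13 Mb, where 21 of the 48 members called higher in any table lie. No member between 11 and 13 Mb was called lower in any table, and 6 of the 16 members called lower lie between 15 and 16 Mb. Few members were tested between 11 and 13 Mb, while 0.489% to 1.6% of all tested entries were called lower. The absence of lower calls there therefore says little. In nrpe1, 6 and 13 members were tested there, and 1.2% of all tested entries were called higher. Its absence of higher calls there therefore says little as well. The megabases from 9 to 10 and from 15 to 16 Mb held the most tested members in every table. Whether lower calls gather between 15 and 16 Mb beyond that share was not tested.

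The region from 11 to 13 Mb, chosen after these counts were seen, holds 380 pseudogene members, and their summed level is given as a description, since the called members that chose the region carry most of it in mom1. The sum was 27.0 FPKM in mom1 replicate 1 against 1.03 in WT and 25.5 FPKM in mom1 replicate 2 against 1.81 in WT, which is 26.1 and 14.1 times the WT sum. It was 11.6 FPKM in pial1/2 against 1.03 in WT (11.2 times), 25.5 in mom1pial2 against 1.85 (13.8 times), 4.59 in pial2 against 1.84 (2.49 times), and 1.19 in nrpe1 against 1.03 (1.15 times). Without AT5G34810 the pial2 ratio was 1.40. The 361 of these pseudogenes that were called higher in no table summed to 5.30 FPKM in mom1 replicate 1 against 0.456 in WT, 5.15 in mom1 replicate 2 against 0.964, 3.47 in pial1/2 against 0.454, 4.76 in mom1pial2 against 0.983, 1.43 in pial2 against 0.981 and 0.567 in nrpe1 against 0.456. Restricted to pseudogenes with under 10% of their windows found elsewhere, the sums were 20.3, 8.33, 14.2, 7.90, 4.35 and 1.55 times those of WT in mom1 replicate 1, mom1 replicate 2, pial1/2, mom1pial2, pial2 and nrpe1. Over all 797 pseudogene members the sums were 119.3 FPKM against 71.2 in WT for mom1 replicate 1, 162.1 against 129.2 for mom1 replicate 2 and 118.7 against 71.2 for nrpe1, so nearly all of the WT signal of the class lies outside the central 2 Mb. In nrpe1 most of the difference lay between 9 and 10 Mb, where the sum was 34.5 FPKM against 2.88 in WT and AT5G27845.1 differed most, and a smaller part lay between 13 and 14 Mb, with 22.9 FPKM against 13.5 in WT and AT5G35207 differing most. Summed protein coding members stood at 0.955 to 1.20 times WT over the 6 tables.

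**Figure D4:**
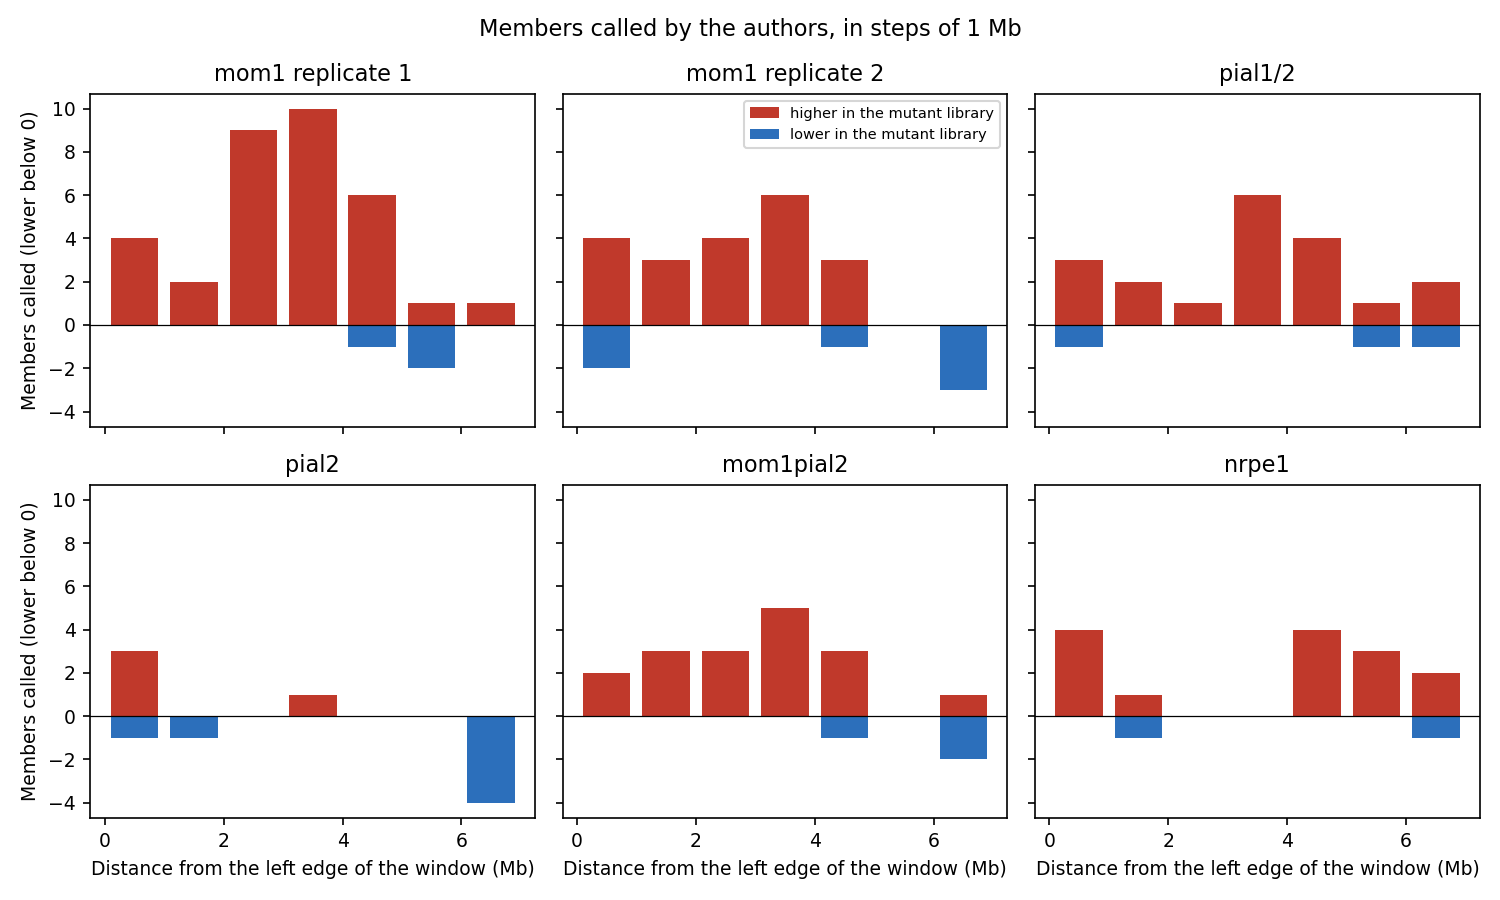
Number of members called higher (above 0) and lower (below 0) by the authors in steps of 1 Mb for each table, by distance from the left edge of the window. In mom1 replicate 1 the highest counts, 9 and 10 of 17 and 26 tested, fall 2 to 4 Mb from the edge. There nrpe1 has 0 of 6 and 13 tested, too few for its absence of calls to say much.

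The repeat in 2 segments, with copies in that region and beyond it, held a few entries that were high in the mom1 and mom1pial2 libraries, among others that were not. AT5G33389 had 1.501 and 2.08 FPKM in mom1 and 2.25 in mom1pial2, against 0 in both WT libraries. The pial1/2-labelled library had 0.332 FPKM, pial2 0.0204 and nrpe1 0.0163, each against 0 in WT. Its neighbour AT5G33391 had 1.85 and 2.00 FPKM in mom1 and 1.98 in mom1pial2 against 0 in WT, and 0.212, 0 and 0 FPKM in pial1/2, pial2 and nrpe1 against 0 in WT. In the limma fit the mom1 log2 ratio was 1.47 ± 0.21 for AT5G33389 (SD, n = 2; adjusted p = 0.16) and 1.55 ± 0.05 for AT5G33391 (SD, n = 2; adjusted p = 0.0769).

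The entries AT5G35057.1 and AT5G35052.1, which hold another copy, were high in the same libraries. They are 6135 and 3636 bases long, and their longest matches to AT5G33389 and AT5G33391 span 1484 and 504 bases. Their levels therefore need not come from the repeat. AT5G35057.1 had 2.16 and 3.28 FPKM in mom1 against 0 and 0.0109 in WT, 3.29 in mom1pial2 against 0.0111, and 0.409 in pial1/2 against 0. It stood at 0.00585 FPKM in pial2 against 0.0111 in WT, and at 0 in nrpe1 and its WT. AT5G35052.1 had 0.932 and 1.28 FPKM in mom1 and 1.43 in mom1pial2 against 0 in WT, and 0.255 in pial1/2 against 0 in WT. The third copy was singled out after its values were seen. In this copy, AT5G32053 had 0.670 and 1.17 FPKM in mom1 and 1.43 in mom1pial2 against 0 in WT. AT5G32035.1 had 1.54 and 1.36 FPKM in mom1 against 0 and 0.0799 in WT and 2.30 in mom1pial2 against 0.0815, and of the mom1 tables it was called only in replicate 1 (q = 0.0137 in the authors' deposited table).

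The same sequence occurs on other chromosomes, and some of those entries were high in mom1 and mom1pial2 too. Entries with at least 400 aligned bases and 80% identity to AT5G33389 numbered 7 other members and 40 entries outside the window. Of these, the authors' deposited tables called 3 and 12 higher in mom1 replicate 1, 2 and 11 in mom1 replicate 2, 1 and 5 in pial1/2, 0 and 0 in pial2, 2 and 12 in mom1pial2, and 0 and 0 in nrpe1. AT5G33391 matched 14 other members and 54 entries outside, of which 3 and 6, 1 and 5, 0 and 2, 0 and 0, 1 and 5, and 0 and 0 were called higher in the same order of tables. The median log2 ratio of the 14 member copies was 0 in every table, and the closest of them, AT5G33387 (95.4% identical over 603 bases), was listed at 0 in all libraries. Of all entries, tested or not, 0.650% were called higher in mom1 replicate 1 and 0.621% in mom1 replicate 2. The share was 0.448% in pial1/2, 0.533% in pial2, 0.521% in mom1pial2 and 0.773% in nrpe1. How many copies were tested was not counted. AT5G33389, AT5G33391 and the copies AT5G32053, AT5G35057.1, AT5G32035.1 and AT5G35052.1 were picked among members higher in mom1. The member calls are therefore partly fixed by that choice. The highest outside copies lie together on chromosome 3. AT3G42716 had 16.8 and 14.1 FPKM in mom1 against 0.0484 and 0.0939 in WT, 6.25 in pial1/2 against 0.0482, and 17.8 in mom1pial2 against 0.0957. AT3G42719.1 had 20.3 and 20.7 FPKM in mom1 against 0 and 0.0705 in WT, 6.29 in pial1/2 against 0, and 28.3 in mom1pial2 against 0.0719. Both stood at or below 0.0484 FPKM in pial2 and nrpe1.

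**Figure D5:**
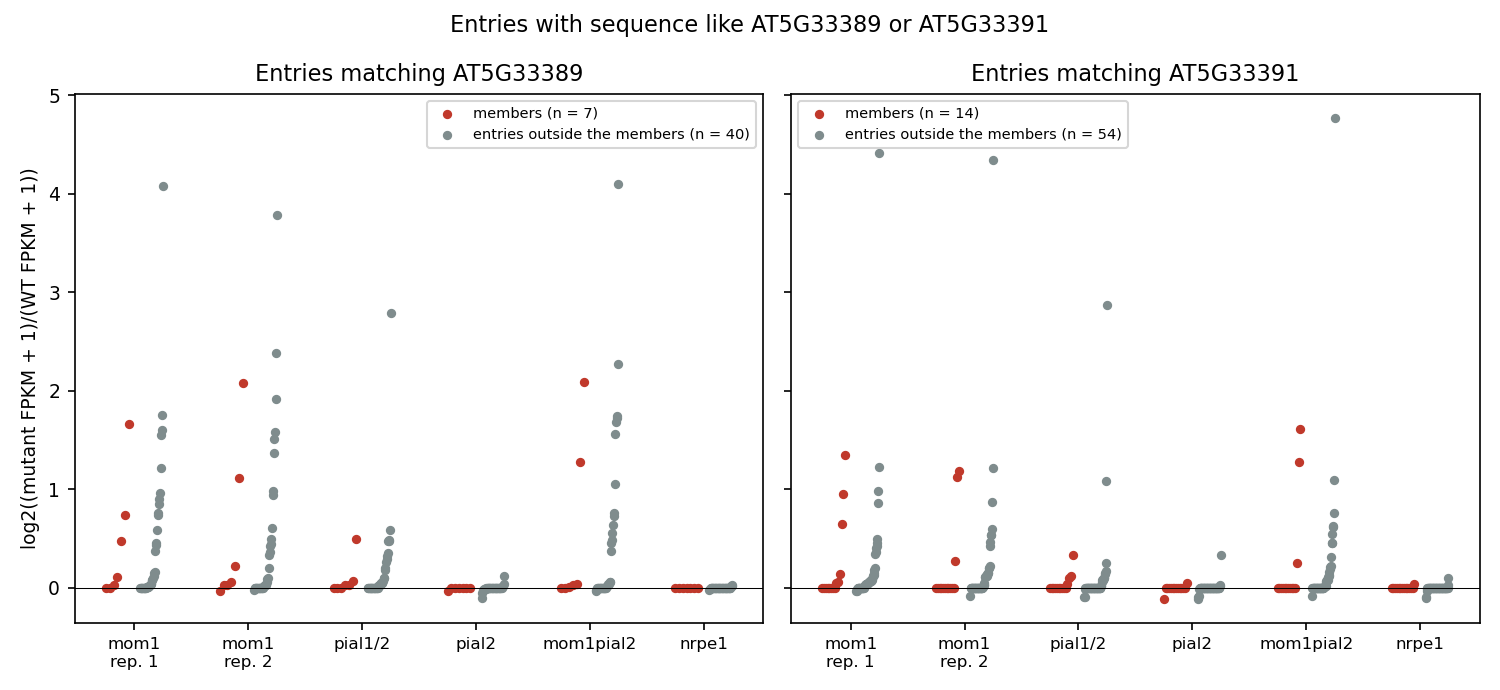
Log2 ratio of mutant over WT on FPKM plus 1 for every entry that matches AT5G33389 (7 members and 40 other entries) or AT5G33391 (14 members and 54 other entries), by table, with members and other entries marked apart. The points spread upward in both mom1 libraries, pial1/2 and mom1pial2 and lie near 0 in pial2 (at most 0.33) and nrpe1 (at most 0.10).

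Other silent members followed their own orders across the mutants. AT5G28888, a pseudogene annotated as similar to a terpenoid cyclase, had 2.33 and 4.39 FPKM in mom1 against 0.0393 and 0 in WT, 3.31 in pial1/2 against 0.0391 and 7.13 in mom1pial2 against 0. It was at 0 in pial2 and its WT and at 0.314 in nrpe1 against 0.0393. Its mom1 log2 ratio was 2.05 ± 0.53 (SD, n = 2; limma adjusted p = 0.248). AT5G32143, of whose windows 92.7% were found elsewhere, had 1.21 and 2.65 FPKM in mom1 and 2.66 in mom1pial2, 0.106 in pial1/2 and 0.0520 in nrpe1, all against 0 in WT. AT5G35050 codes for a hypothetical protein with a DUF1985 domain, a domain known from transposon-related plant proteins, and lies 3300 bases from AT5G35052.1. It had 3.88 and 3.20 FPKM in mom1 against 0 and 0.0528 in WT, 2.98 in pial1/2 against 0, 2.79 in mom1pial2 against 0.0539 and 1.76 in nrpe1 against 0, but 0.171 in pial2 against 0.0537. Its limma log2 ratio in mom1 was 2.14 ± 0.21 (SD, n = 2; adjusted p = 0.0675). Unlike the repeat, AT5G35050 was thus called in nrpe1 as well (q = 0.000381 in the authors' deposited table).

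AT5G33395, AT5G33254.1 and AT5G31212.1 were singled out after their values were seen. AT5G33395 had 1.55 and 1.25 FPKM in mom1 against 0.0187 and 0.0218 in WT, 1.31 in pial1/2 against 0.0186 and 1.40 in mom1pial2 against 0.0222, so that the pial1/2-labelled library was as high as mom1. AT5G31212.1 had 1.19 FPKM in mom1 replicate 1 and 1.01 in pial1/2 against 0 in WT, but 0.0297 in mom1 replicate 2 and 0.0482 in mom1pial2 against 0 in WT. It stood at 0.0120 FPKM in nrpe1 and 0 in pial2 against 0 in WT, and the mom1 replicates thus did not match at AT5G31212.1. AT5G33254.1 had 2.11 and 1.28 FPKM in mom1, 2.25 in mom1pial2 and 0.620 in pial1/2 against 0 in WT.

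AT5G27845.1 was higher in every mutant, and its level in FPKM was highest in nrpe1. This pseudogene entry at chr5:9868348-9871836 had 30.7 FPKM in nrpe1 against 0.203 in WT and 12.4 in pial1/2 against 0.202. It had 5.95 FPKM in mom1 replicate 1 against 0.203, 3.31 in mom1 replicate 2 against 0.00982, 2.98 in mom1pial2 against 0.01002 and 2.01 in pial2 against 0.009995. All 6 differences were called in the authors' deposited tables, with the highest q at 4.11e-05 (pial2). The mom1 log2 ratio of AT5G27845.1 was 2.31 ± 0.31 (SD, n = 2; limma adjusted p = 0.0973), and the nrpe1 ratio of 4.72 was the highest of the members called in that table. Its downstream neighbour AT5G27850, a gene of the ribosomal protein L18e/L15 superfamily on the same strand and 1315 bases away, was high in the same libraries. AT5G27850 had 799 FPKM in nrpe1 against 318 in WT, 684 in pial1/2 against 316, 517 and 565 in mom1 against 318 and 357, 540 in pial2 against 363 and 536 in mom1pial2 against 364. Each was called in the authors' deposited table except mom1pial2 (q = 0.0815), and the mom1 log2 ratio was 0.68 ± 0.03 (SD, n = 2; limma adjusted p = 0.341). The order of the mutants was the same in both entries at the top, with nrpe1 above pial1/2 above the rest.

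A pair of neighbouring pseudogenes were measurable in nrpe1 and hardly anywhere else. AT5G35207 had 7.74 FPKM in nrpe1 against 0 in WT and stood at or below 0.103 FPKM in the other mutants and WT libraries. AT5G35205, 137 bases away on the same strand, had 2.04 FPKM in nrpe1 against 0 in WT and at most 0.0315 elsewhere. The authors' deposited table gave q = 6.29e-13 for AT5G35207 and q = 5.18e-24 for AT5G35205 in nrpe1. AT5G38005, a non-coding RNA with a level in WT, was higher in several mutants. It had 13.8 FPKM in nrpe1 against 2.36 in WT and 6.73 in mom1 replicate 1 against 2.36, both called. It also had 13.3 FPKM in mom1 replicate 2 against 6.81, 5.55 in pial1/2 against 2.35 and 13.5 in mom1pial2 against 6.94. In pial2 it had 7.53 FPKM against 6.93, and none of these last tables called it. AT5G36930, which codes for a TIR-NBS-LRR class disease resistance protein and was singled out after its values were seen, had 8.36 FPKM in nrpe1 against 4.02 in WT, and 3.32 to 4.21 FPKM in the other mutants against 3.98 to 4.06 in WT. The difference between nrpe1 and the other mutants was not tested.

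A further pair of neighbours moved in opposite directions. The pseudogene AT5G35935.1 was singled out after its values were seen. It had 2.94 FPKM in mom1 replicate 1 against 1.23 in WT, 3.43 in pial1/2 against 1.23 and 4.01 in nrpe1 against 1.23, each called higher in the authors' deposited tables. In the set of WT replicate 2 it had 1.52 FPKM in mom1 replicate 2 against 0.911, 0.992 in pial2 against 0.927 and 1.13 in mom1pial2 against 0.929, none of them called. AT5G35940, a mannose-binding lectin superfamily gene 933 bases away on the opposite strand, had 3.61 and 4.33 FPKM in mom1 against 6.39 and 7.44 in WT, 3.41 in pial1/2 against 6.36, 4.69 in pial2 against 7.57, 4.81 in mom1pial2 against 7.58 and 3.97 in nrpe1 against 6.39. All 6 mutant libraries thus stood below their WT library, and the mom1 replicate 1 and pial1/2 differences were called (q = 0.0481 and 0.00593 in the authors' deposited tables). The mom1 log2 ratio of AT5G35940 was -0.67 ± 0.01 (SD, n = 2; limma adjusted p = 0.341).

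The members called lower were mostly protein coding genes, and 6 of the 16 were called in several tables. AT5G37990 and AT5G38020, methyltransferases of the S-adenosylmethionine-dependent superfamily that lie 30151 bases apart, were called lower in mom1 replicate 2 and pial2. The root markers THAS and PRP3 were also low there (PRP3 at 22.3 FPKM against 36.7 in WT and 24.97 against 37.3). THAS was low in mom1pial2 too (7.66 against 14.0). The root marker TIP2;3 had 23.8 FPKM against 25.7 in mom1 replicate 2 and 21.2 against 26.1 in pial2. It was further below WT in mom1 replicate 1 (12.2 against 16.8), pial1/2 (10.6 against 16.7) and nrpe1 (9.15 against 16.8). The part of these root markers was not tested. AT5G37990 had 10.5 FPKM in mom1 replicate 2 against 26.7 in WT and 11.1 in pial2 against 27.2, but 14.1 in mom1 replicate 1 against 10.8, and 15.9 in nrpe1 against 10.8, where it was called higher. AT5G38020 had 7.83 FPKM in mom1 replicate 2 against 17.4 in WT and 6.95 in pial2 against 17.7, but 7.01 in mom1 replicate 1 against 6.53. The pial1/2-labelled library had 8.14 FPKM of AT5G37990 against 10.8 in WT and 4.46 of AT5G38020 against 6.50, and mom1pial2 had 23.4 against 27.3 and 12.9 against 17.7, with no call. In the authors' deposited tables the lower calls of AT5G37990 had q = 5.14e-08 and 2.17e-10. The mom1 replicates thus did not match, since neither gene was called in mom1 replicate 1, and WT replicate 2 itself stood above WT replicate 1 at both genes. The MATE efflux gene AT5G38030, next to AT5G38020, had 4.88 FPKM in pial2 against 8.26 in WT (q = 0.0119 in the authors' deposited table).

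The acyltransferase genes PMAT1 and AT5G39080 lie 5592 bases apart and were called lower in mom1pial2. PMAT1 (AT5G39050), a malonyltransferase linked to detoxification of phenolic compounds, had 7.70 FPKM in mom1pial2 against 13.3 in WT and 7.64 in mom1 replicate 2 against 13.1, but 11.5 in mom1 replicate 1 against 11.7. AT5G39080 had 20.5 FPKM in mom1pial2 against 34.6 in WT, 23.1 in pial2 against 34.5 and 16.0 in nrpe1 against 24.0, all called lower in the authors' deposited tables. AT5G26280, a TRAF-like gene 574 bases downstream of AT5G26270, had 52.5 FPKM in pial1/2 against 85.3 in WT (q = 2.73e-07 in the authors' deposited table). In mom1 AT5G26280 had 63.2 FPKM in replicate 1 against 85.7 in WT and 63.6 in replicate 2 against 52.9. The lectin gene AT5G28520 had 1.02 FPKM in pial2 against 2.45 in WT, and the pseudogene AT5G35777 had 1.32 in mom1pial2 against 2.76, each called lower in the authors' deposited table.

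Well-studied genes of the window were described in 3 lists. Of 10 chloroplast and nitrogen genes, 10 stress and transport genes and 8 light and hormone genes, at most 1 of each list was called in any of the authors' deposited tables, and the list medians of the log2 ratio lay between -0.13 and 0.20. In nrpe1 1 gene of the first list and 1 of the second were called higher, where the background was 1.2%. AHK2 (annotated as HK2), a cytokinin receptor histidine kinase, had 10.2 FPKM in mom1 replicate 1 against 17.4 in WT (q = 0.000197 in the authors' deposited table), but 7.93 in mom1 replicate 2 against 8.41. RBCS1B, a small subunit gene of Rubisco, had 288 FPKM in pial1/2 against 376 in WT and was called lower there, while it had 3435 FPKM in pial2 against 2127 in WT with no call, and its near-identical family members make its level uncertain. The cytosolic glutamine synthetase gene GLN1;1 (AT5G37600) had 69.9 FPKM in nrpe1 against 54.1 in WT, and the ChaC-like gene AT5G26220, of glutathione breakdown, had 10.5 FPKM in nrpe1 against 6.10, both called higher in the authors' deposited table. The growth regulator gene PRE1 (AT5G39860), singled out after its values were seen, had 28.7 FPKM in mom1pial2 against 15.2 in WT (q = 0.00788 in the authors' deposited table) and 16.1 and 22.6 FPKM in mom1 against 11.4 and 14.9.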

How the data were processed

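Messenger RNA from 8 seedling libraries was compared in 6 deposited tables. The submitters' processing notes name TopHat2 2.0.12, Bowtie, TAIR10, Cufflinks 2.2.1 and Cuffdiff, with no version for Bowtie or Cuffdiff; strand, read length and treatment of multi-mapping reads are not given in the sources used here. The deposited levels are FPKM per the file headers, scaled by the authors within each table, and the p-value and q-value are the authors' deposited Cuffdiff results for the 2 libraries of a table.

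Members were matched by locus identifier to TAIR10.1 (1698 of 1725), and both ends of 585 of 587 pseudogene members with an interval of their own equal that annotation. Log2 ratios used FPKM plus a pseudocount of 1. The 2 mom1 ratios entered an intercept-only model in limma (version 3.58.1, R 4.3.3) with empirical Bayes moderation and two-sided tests, adjusted by Benjamini-Hochberg with a threshold of 0.05, over all entries with at least 1 FPKM in 1 of the 4 libraries, tested first on simulated data. Each ratio pairs libraries of the same replicate number, as the tables do; deviations of same-numbered mom1 and WT libraries from their group means correlated at 0.835 over 20517 entries. FPKM without counts allow no interval for single values. Repeats were searched with windows of 50 bases, and copies with BLAST+ 2.17.0. Python 3.11.15, numpy 2.4.6, pandas 2.3.3 and matplotlib 3.10.9 did the rest.

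The members and gene lists were chosen with earlier results of these data known. Named genes are the 10 highest of the members called in the same direction in both mom1 tables, the 4 highest and 4 lowest called members of each other table, their neighbours within 5 kb with a log2 ratio of at least 1, and called genes of the window lists; others are said to be singled out. The alternatives were a pseudocount of 0.1, no filter on low values, centred ratios, no replicate block, each replicate left out, a q below 0.01, a 2-fold minimum and low-repeat members; counting each locus once and the summed FPKM were added after seeing the data.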

Additional observations from a re-analysis of the deposited data

How the results depend on the processing

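With a pseudocount of 0.1 the limma fit passed 2 members upward, AT5G29560 (a caleosin-related gene) and AT5G33391, against 0 as reported; it passed 0 with centred ratios, with no filter on low values (lowest adjusted p 0.216) and with no replicate block (lowest adjusted p 0.364), and 0 downward throughout. The tables pair libraries by number, so the fit without the pairing ignores it; it changed no call of a member, and over all entries it passed 0 upward in place of 18. Members at least 2-fold higher in both mom1 tables numbered 15; leaving out either replicate gave 23 to 23, and low-repeat members alone gave 9; for 2-fold lower members, leaving out a replicate gave 3 to 5 in place of 0. For members called higher by the authors, a q below 0.01 gave 19 of the 33 in mom1 replicate 1 and 11 of the 19 in pial1/2. Adding a 2-fold minimum gave 18 of the 33 in mom1 replicate 1, 10 of the 19 in pial1/2 and 7 of the 14 in nrpe1. Low-repeat members alone gave 17 of the 33 in mom1 replicate 1, 12 of the 20 in mom1 replicate 2 and 10 of the 17 in mom1pial2. For members called lower, a q below 0.01 gave 1 of 3 in mom1 replicate 1, 3 of 6 in mom1 replicate 2 and 3 of 6 in pial2; the 2-fold minimum gave 2 of 6 in mom1 replicate 2 and in pial2, and 0 in the other tables; low-repeat members gave 1 of 2 in nrpe1. Fewer members can pass a stricter rule by construction. Counting each locus once changed no count. Of the other results, 48 values of counts over members and 88 of single members held, 22 single values moved, and none reversed. With 1 library for 4 of the 5 mutants and no counts, low entries are the least certain.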
